A study of Mus musculus with 48 samples.

Results

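Klhdc2, St7, Hal, Tmem123, Pdzk1ip1, Pth and Rasl2-9 are 7 genes that differed widely between stimulated and unstimulated co-cultures of Copaxone-raised T cells and whose place in immunity is unclear. They were taken by gene symbol from the annotation of the arrays, with every probe kept apart, which gave 9 probes of 39430 and 7 gene symbols of 22485. Pdzk1ip1 and Rasl2-9 had 2 probes each, called here the brighter and the dimmer probe, and the other 5 genes had 1 probe each. The genes were chosen by the size of their difference between Copaxone and Media, so their differences from Media are given as a description with no test.

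The study compared 4 groups of wells, 48 samples in all, on single-dye Agilent mouse arrays after 24 h. There were 17 samples of Copaxone, the brand version of glatiramer acetate (GA), from 9 lots, 16 samples of Glatopa, its generic version, from 4 lots, and 8 samples of ACN, a nonequivalent glatiramoid, from 1 lot. Each was present at 20 µg/mL, and 7 Media samples received medium with mannitol and no GA. Every well of every group held the same cells, namely the Th2-455 line and splenocytes of naive Balb/c mice as antigen-presenting cells (APCs). The line was raised from CD4+ T cells of female Balb/c mice aged 8 to 12 weeks that had been immunized with Copaxone, was restimulated ex vivo with Copaxone for 13 rounds and is nonclonal. For every 2 T cells 10 splenocytes were added, so an array reads both, and fewer cells of a type cannot be told apart from less RNA per cell. Nothing in the labels ties replicates to separate cultures of the line, so p-values measure the spread between wells of 1 experiment.

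Values are log2 intensities, and the authors' quantile normalization gave all arrays nearly the same median, between 4.95 and 5.02. Against the cell type that the labels give, the T cell genes Cd3d (9.75 ± 0.14, SD, n = 7, in Media) and Thy1 (10.16 ± 0.10) were bright. The probe of Cd4, however, stood at 5.17 ± 0.07 in Media, close to the array medians. The B cell genes Cd79b (12.48 ± 0.26) and Ms4a1 (10.44 ± 0.19) were bright in Media as well. The other measured B cell markers were dimmer there, at 7.30 for Cd79a, 6.03 for Blk and 4.995 for Pax5, the last near the array medians. Of the 48 arrays, 4 carried large shared deviations from their groups, namely Copaxone lot 3 replicate 1, lot 7 replicate 1 and lot 9 replicate 1, and ACN replicate 2.

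The 7 proteins do unrelated work. Klhdc2 is a substrate receptor of a cullin-2 ubiquitin ligase, which recognizes proteins by their C-terminal end and marks them for the proteasome. St7 is a multi-pass membrane protein proposed as a tumour suppressor in human cells, Tmem123 (porimin) is a mucin-like surface protein described in the death of a human T cell line, and Pdzk1ip1 (MAP17) is a small membrane protein of kidney epithelium that binds the scaffold protein Pdzk1. Hal is histidase, which opens the breakdown of histidine by making urocanate in liver and skin. Pth is parathyroid hormone, which the parathyroid gland secretes to raise blood calcium. Rasl2-9 is a close copy of Ran, the small GTPase that gives direction to transport through the nuclear pore, and the annotation even lists Ran among its synonyms, so its probes may also bind Ran RNA.

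The stretches upstream of 5 of these genes are printed because they carry the widest differences from Media (Klhdc2, St7 and Hal) and the differences between ACN and the other articles (Pdzk1ip1 and Pth). They are RefSeq promoter windows of build GRCm38.p6, 250 bases before the start and read 5′ to 3′ on the strand of the gene, and capitals mark matches on either strand to TATAAA, TGACGTCA (the CRE), TGANTCA (AP-1), CACGTG (the E-box), TTCNNNGAA (STAT) or the NF-kB consensus.
Klhdc2, chr12:69296431-69296680, plus strand: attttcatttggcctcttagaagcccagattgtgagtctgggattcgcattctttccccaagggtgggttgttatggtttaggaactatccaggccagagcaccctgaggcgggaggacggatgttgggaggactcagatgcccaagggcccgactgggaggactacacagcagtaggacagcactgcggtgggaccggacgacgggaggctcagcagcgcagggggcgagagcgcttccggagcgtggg
St7, chr6:17693744-17693993, plus strand: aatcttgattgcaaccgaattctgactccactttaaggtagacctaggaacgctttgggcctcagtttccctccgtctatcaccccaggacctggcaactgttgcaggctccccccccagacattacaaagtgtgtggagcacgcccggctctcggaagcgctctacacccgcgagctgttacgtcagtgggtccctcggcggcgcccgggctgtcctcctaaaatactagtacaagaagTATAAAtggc
Hal, chr10:93488518-93488767, plus strand: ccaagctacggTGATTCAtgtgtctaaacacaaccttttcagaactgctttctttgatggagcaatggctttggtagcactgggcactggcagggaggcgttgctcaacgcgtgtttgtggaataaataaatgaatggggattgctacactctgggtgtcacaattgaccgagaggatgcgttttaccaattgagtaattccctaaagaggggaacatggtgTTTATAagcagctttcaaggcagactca
Pdzk1ip1, chr4:115088458-115088707, plus strand: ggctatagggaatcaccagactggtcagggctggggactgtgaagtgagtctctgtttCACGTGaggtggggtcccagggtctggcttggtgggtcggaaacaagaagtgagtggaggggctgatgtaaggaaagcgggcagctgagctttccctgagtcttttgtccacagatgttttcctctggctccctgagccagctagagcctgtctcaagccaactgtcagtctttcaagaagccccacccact
Pth, chr7:113388574-113388823, minus strand: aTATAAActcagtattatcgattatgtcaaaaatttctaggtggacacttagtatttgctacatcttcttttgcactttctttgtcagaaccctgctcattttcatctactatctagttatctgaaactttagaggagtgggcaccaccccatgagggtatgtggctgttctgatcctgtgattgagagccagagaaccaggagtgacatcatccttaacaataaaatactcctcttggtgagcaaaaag

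The upstream stretches had little in common. All 7 genes matched the table by symbol, with 10 windows among them, since St7 had 3 and Tmem123 had 2. TATAAA was found 28 bases before the start of Hal on the opposite strand, 10 bases before the first start of St7 and 249 bases before that of Pth, and 12.4% of all 32851 windows hold it. CACGTG was found 192 bases before the start of Pdzk1ip1 and 17 bases before that of Rasl2-9 (6.02% of all windows), and TGATTCA, a form of TGANTCA, 239 bases before that of Hal (6.75%). No window of the 7 genes held TGACGTCA, TTCNNNGAA or the NF-kB consensus (1.55%, 7.02% and 7.25% of all windows). The short NFAT core GGAAA, which may overlap the NF-kB consensus and is not in capitals, occurred 4 times before Pdzk1ip1, 1 time each before Klhdc2 and the first 2 starts of St7, and in 55.6% of all windows. The GC share of the windows ran from 39.2% for Pth to 70.8% for Tmem123, with a median of 52.4% over all windows. A match to letters is a description of the sequence and not evidence of binding.

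Klhdc2 and St7 had the widest differences from Media among the 7 genes, and stood at like levels with each article. Klhdc2 (gene ID 69554) read 6.53, 6.25, 5.66, 6.15, 6.26, 5.66 and 5.94 in Media replicates 1 to 7. With Copaxone its lowest, median and highest values were 8.05, 9.09 and 9.87, with Glatopa 8.68, 9.01 and 9.36, and with ACN 8.60, 9.11 and 9.27. No treated sample came near the Media samples, and the treated groups overlapped almost entirely. The mean of 9.03 ± 0.45 (SD, n = 17) with Copaxone was 7.78-fold above that of 6.07 ± 0.33 (n = 7) in Media, the 8th largest difference of all probes in either direction, and the folds were 7.77 with Glatopa and 7.87 with ACN. St7 (gene ID 64213) read 6.41, 6.48, 6.61, 6.25, 6.44, 6.44 and 6.53 in Media. Its lowest, median and highest values were 8.21, 9.32 and 9.90 with Copaxone, 8.80, 9.19 and 9.52 with Glatopa, and 9.02, 9.23 and 9.79 with ACN. Thus Media and treated samples of St7 were again far apart, and the means were 7.10-fold, 6.74-fold and 7.26-fold above Media with Copaxone, Glatopa and ACN.

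Hal was the only one of the 7 genes that was lower in stimulated wells. Its probe (gene ID 15109) read 7.12, 7.45, 7.59, 7.47, 7.34, 7.17 and 7.12 in Media. With Copaxone its lowest, median and highest values were 4.94, 5.24 and 5.51, and with Glatopa 4.96, 5.25 and 5.50, so that with both articles it lay close to the array medians. The 8 ACN samples read 5.21, 5.42, 5.19, 5.67, 5.47, 5.51, 6.30 and 5.29, with replicate 7 above every other treated sample. The measured means were 4.22-fold below Media with Copaxone, 4.21-fold with Glatopa and 3.52-fold with ACN. No detection calls were used, so whether a probe this close to the array medians was above background is not known, and folds against such levels, here and for Pth, Pdzk1ip1 and the dimmer probe of Rasl2-9, may understate the change in RNA. Markers of several cell types differed from Media as well, beside Hal and beside the genes that were higher. Of 6 T cell markers, 2 were lower with Copaxone and 0 higher (Cd3d 1.68-fold, adjusted p = 7.19e-06, and Cd2 1.32-fold, adjusted p = 2.80e-05, limma), and of 2 CD8 T cell markers Cd8a was 1.37-fold higher (adjusted p = 2.11e-07). The other CD8 T cell marker, Cd8b1, differed by -0.04 on the log2 scale with Copaxone and was not called (adjusted p = 0.834, limma). Of 5 B cell markers, 2 were called higher and 0 lower with Copaxone (Ms4a1 1.95-fold, adjusted p = 9.63e-07, and Cd79b 1.41-fold, adjusted p = 0.00247, limma). The others, Blk, Cd79a and Pax5, differed by -0.29, -0.18 and -0.04 on the log2 scale and were not called. The median of the B cell list was -0.04. With Glatopa, Blk was called lower (-0.37, adjusted p = 0.00786, limma). Of 3 erythroid markers, Hba-a1 was 1.69-fold lower with Copaxone (adjusted p = 4.51e-04, limma). Hbb-b1 and Alas2 differed by -0.14 and 0.03 on the log2 scale and were not called. Of 8 monocyte and macrophage markers, 3 (Csf1r, Adgre1 and Mpeg1) were lower and 0 higher with Copaxone by adjusted p, and the mean of the 8 ran from 6.23 to 6.62 over Media samples, 5.90 to 6.12 over Copaxone samples, 5.90 to 6.06 over Glatopa samples and 6.02 to 6.30 over ACN samples, with C1qa (5.00 in Media) and C1qb (4.86) near the array medians. Of 6 neutrophil markers, 3 (S100a8, S100a9 and Camp) were lower and 0 higher, and their mean over Copaxone samples (6.32) was below its range over Media samples (6.56 to 6.90). The part of these cells in the values of Hal or of the genes that were higher was not tested. All 4 liver markers (mean of 4.71 to 4.93 over Media samples) and all 3 epidermal markers (4.86 to 5.23) were near the array medians.

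Tmem123 (gene ID 71929) was already bright in Media, at 9.32, 8.92, 9.19, 9.21, 9.17, 8.77 and 9.02 in replicates 1 to 7. Its lowest, median and highest values were 10.06, 10.62 and 11.28 with Copaxone, 10.06, 10.59 and 10.75 with Glatopa, and 9.65, 10.38 and 10.59 with ACN. No treated sample overlapped Media, and 2 of the 8 ACN samples lay below all samples of the other articles while the highest reached the Glatopa median. The means were 3.12-fold above Media with Copaxone, 2.72-fold with Glatopa and 2.30-fold with ACN.

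Pth, the hormone gene, was near the array medians in Media and moderately above them with each article. Its probe (gene ID 19226) read 4.77, 5.01, 5.05, 5.06, 4.91, 5.30 and 4.82 in Media and 5.42, 5.42, 5.68, 5.54, 5.55, 5.72, 5.74 and 5.76 in ACN replicates 1 to 8. Its lowest, median and highest values were 5.74, 6.03 and 6.30 with Copaxone and 5.86, 6.01 and 6.29 with Glatopa. The groups formed 3 steps, with ACN between Media and the other articles, and the measured means were 1.53-fold above Media with ACN, 2.08-fold with Copaxone and 2.05-fold with Glatopa. The parathyroid markers Casr (4.88 ± 0.20 in Media and 4.81 ± 0.14 with Copaxone) and Chga were near the array medians in every group.

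The brighter probe of Pdzk1ip1 (gene ID 67182) showed the same 3 steps. It read 5.46, 5.01, 5.21, 5.06, 4.86, 4.82 and 5.20 in Media and 6.29, 5.83, 6.32, 6.36, 6.42, 6.01, 6.30 and 6.60 with ACN. Its lowest, median and highest values were 6.36, 6.73 and 7.12 with Copaxone and 6.58, 6.81 and 7.06 with Glatopa. The means were 2.26-fold above Media with ACN, 3.07-fold with Copaxone and 3.31-fold with Glatopa. The dimmer probe, which is annotated with the same transcript, read 4.80 ± 0.05 (SD, n = 7) in Media, 5.07 ± 0.16 (n = 8) with ACN, 5.16 ± 0.14 (n = 17) with Copaxone and 5.00 ± 0.19 (n = 16) with Glatopa. Its direction was that of the brighter probe, but the folds were 1.20, 1.28 and 1.15, and the order of ACN and Glatopa was turned. The kidney markers Slc34a1, Lrp2 and Umod had means of 4.74 to 4.93 in Media.

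The probes of Rasl2-9 (gene ID 19428) differed in level and in behaviour. The brighter probe read 10.11, 10.07, 9.84, 9.71, 9.86, 9.94 and 9.71 in Media, and its lowest, median and highest values were 9.53, 10.64 and 11.70 with Copaxone, 10.32, 10.68 and 11.06 with Glatopa, and 9.89, 10.38 and 10.95 with ACN. One Copaxone sample, lot 9 replicate 2, lay below all Media samples, and 15 of 17 lay above them. The means were 1.68-fold above Media with Copaxone, 1.70-fold with Glatopa and 1.37-fold with ACN. The dimmer probe was 2.09-fold, 1.77-fold and 1.37-fold above Media and was spread widely within groups. Its 8 ACN samples fell into 4 between 4.97 and 5.38 and 4 between 6.16 and 6.47, and the Glatopa samples ran from 5.29 to 6.69 with their widest gap between 5.32 and 5.67, which left 2 samples below it and 14 above. The 17 Copaxone samples ran from 5.83 to 6.77.

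**Figure D1:**
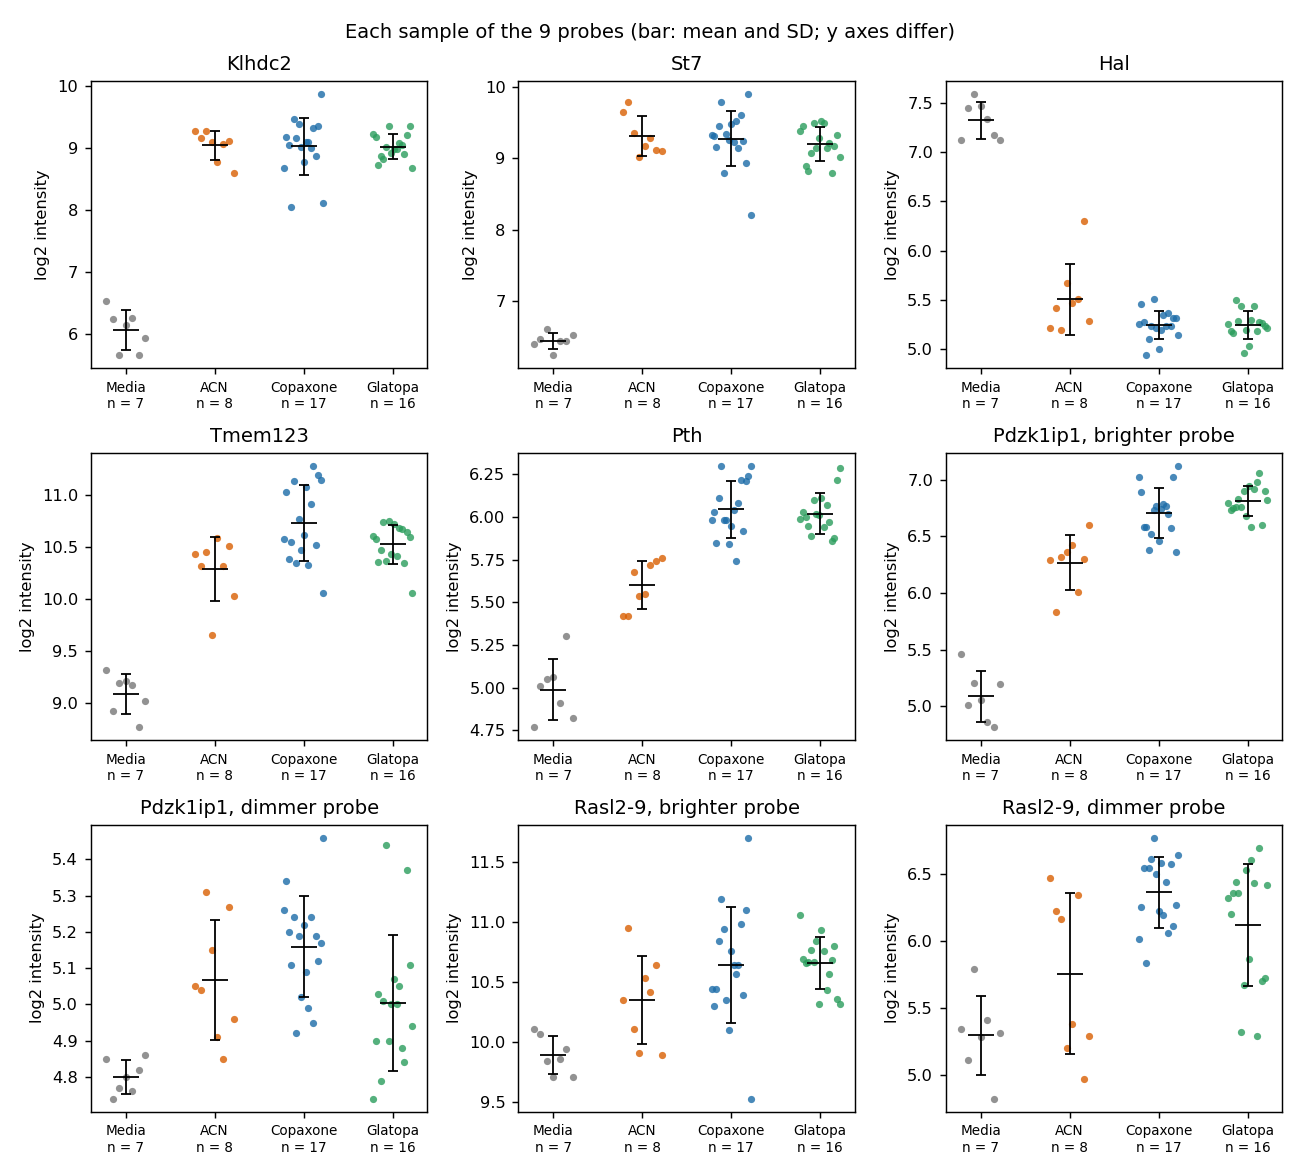
Log2 intensity (y axis) of each sample for the 9 probes in the Media, ACN, Copaxone and Glatopa groups (x axis), with points for samples and bars for the mean and SD. Pth and the brighter probe of Pdzk1ip1 step from Media (means 4.99 and 5.09) over ACN (5.60 and 6.26) to the other articles, and the dimmer probe of Rasl2-9 is split within ACN.

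The counts of samples beyond the Media range follow from how the genes were chosen and are given only as a description. All 17 Copaxone samples lay above all Media samples for 7 of the 9 probes, against 1.09% of all probes, and below them for Hal (1.43% of all probes). With Glatopa this held for 6 probes (1.81% of all probes) and for Hal (1.89%), and with ACN for 5 probes (1.20%) and for Hal (1.10%). The comparisons share the Media samples. Ranked by the size of the difference between Copaxone and Media over all probes, Klhdc2 was 8th, St7 9th, Hal 25th, Tmem123 51st, the brighter probe of Pdzk1ip1 54th, the dimmer probe of Rasl2-9 274th, Pth 282nd, the brighter probe of Rasl2-9 1094th and the dimmer probe of Pdzk1ip1 5217th.

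**Figure D2:**
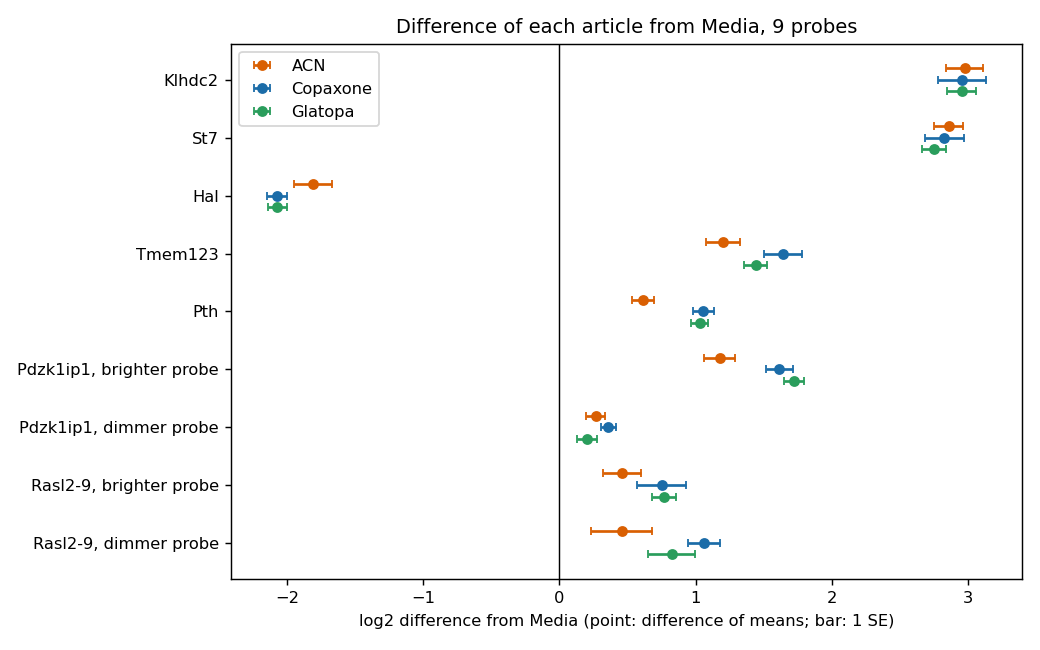
Log2 difference from Media (x axis) for each of the 9 probes (y axis) with ACN, Copaxone and Glatopa, as points with bars of 1 SE. Klhdc2 and St7 lie between 2.75 and 2.98 with all 3 articles, Hal between -2.08 and -1.81, and Pth and the brighter probe of Pdzk1ip1 have ACN to the left of the other articles.

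Whether the articles differed from each other was tested for all 3 pairs at the same dose and time, with limma and p adjusted by Benjamini-Hochberg over all 39430 probes. Copaxone values entered the choice of the genes, so the pair of ACN and Glatopa is the one farther from that choice. Of the 9 probes, 2 were lower with ACN than with Glatopa and 0 higher, where 0.185% of all probes were called lower and 0.495% higher. Pth was 0.42 lower on the log2 scale (95% interval -0.53 to -0.30, 1.33-fold, adjusted p = 8.09e-04, limma), and all 8 ACN samples lay below all 16 Glatopa samples, as they did for 0.0101% of all probes. The brighter probe of Pdzk1ip1 was 0.55 lower (-0.70 to -0.40, 1.46-fold, adjusted p = 8.09e-04), with 7 of 8 ACN samples below all Glatopa samples. The dimmer probe of Pdzk1ip1 did not show this difference (0.06, interval -0.09 to 0.22, adjusted p = 0.836), so the difference rests on 1 of the 2 probes of the gene. Of 8 monocyte and macrophage markers, 1 was called higher with ACN than with Glatopa and 0 lower (Lyz2, 0.65, adjusted p = 0.0308, limma). Of 6 neutrophil markers, 1 was called higher and 0 lower (S100a8, 0.52, adjusted p = 0.0351, limma). The medians of the 2 lists were 0.15 and 0.24. Among markers not called, Cd68 (-0.12), C1qb (-0.09), C1qa (-0.00) and Ltf (-0.01) went the other way. The part of these cells in the values of Pth and Pdzk1ip1 was not tested. With 1 value per Glatopa lot the differences were the same, at -0.42 and -0.55, but over fewer values neither call held (adjusted p = 0.158 for Pth and 0.271 for Pdzk1ip1, limma), and since ACN is 1 lot, article and lot cannot be told apart for it.

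Against Copaxone, 1 of the 9 probes was lower with ACN and 0 were higher, where 0.0406% of all probes were called lower and 0.071% higher. For genes chosen as high with Copaxone, that choice can push this difference down. The shares of all probes are therefore a background and no test of the 9 probes as a set. Pth was 0.44 lower (95% interval -0.58 to -0.30, 1.36-fold, SE 0.07, adjusted p = 0.00756, limma), with 6 of 8 ACN samples below all 17 Copaxone samples. The brighter probe of Pdzk1ip1 differed by -0.44 as well (-0.63 to -0.25) but missed the threshold at an adjusted p of 0.0566, with 5 of 8 ACN samples below all Copaxone samples. Without the 4 arrays that stood apart, the difference of Pth was -0.37 and its adjusted p was 0.0565. Of these arrays only ACN replicate 2 enters the comparison with Glatopa. Without it, both probes kept an adjusted p under 0.05 there (0.00276 for Pth and 0.00173 for Pdzk1ip1, limma). For the dimmer probe of Rasl2-9 (-0.61, adjusted p = 0.150), Tmem123 (-0.44, adjusted p = 0.284) and Hal (0.26, adjusted p = 0.394) the 95% intervals left out 0 while the adjusted p was not under 0.05.

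Klhdc2 and St7, the widest of the differences from Media, were not distinguished between any pair of articles. Between ACN and Copaxone, Klhdc2 differed by 0.02 (95% interval -0.32 to 0.35, or 0.803-fold to 1.27-fold) and St7 by 0.03 (-0.27 to 0.33). Between ACN and Glatopa the values were 0.02 (-0.16 to 0.20) and 0.11 (-0.10 to 0.32). The intervals are those of the fit without a replicate block, and they do not show that the articles act alike.

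Between Glatopa and Copaxone 0 of the 9 probes were called, as were 0% of all probes, while 4.13% of all probes (1628) had an unadjusted p under 0.05 in limma and the methods' t-test with the same adjustment called 0 as well. The widest intervals were those of the dimmer probe of Rasl2-9 (-0.24, -0.49 to 0.01) and of the brighter one (0.02, -0.24 to 0.27), and the narrowest was that of Hal (0.00, -0.10 to 0.10). Pth differed by -0.03 (-0.13 to 0.08) and the brighter probe of Pdzk1ip1 by 0.11 (-0.02 to 0.24). The dimmer probe of Pdzk1ip1 (-0.16, unadjusted p = 0.0097 and adjusted p = 0.995, limma) and Tmem123 (-0.20, unadjusted p = 0.0479 and adjusted p = 0.995, limma) were the 2 with an unadjusted p under 0.05.

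**Figure D3:**
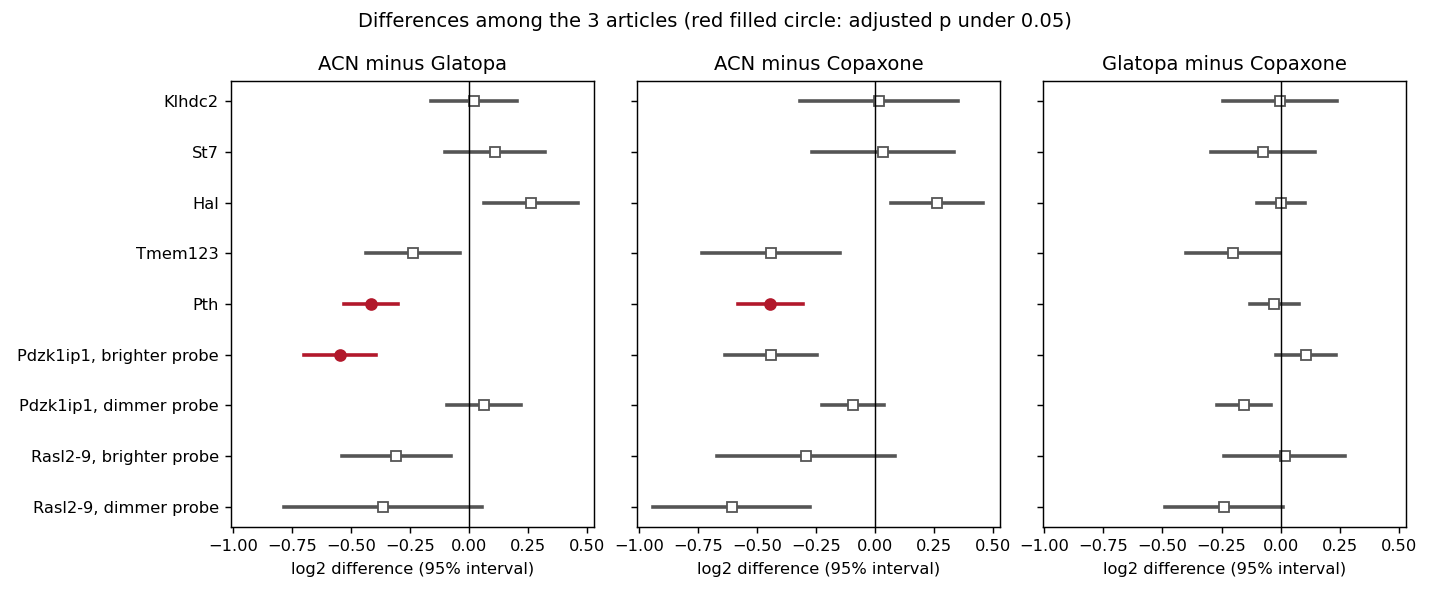
Log2 difference (x axis) between each pair of articles for the 9 probes (y axis), with 95% intervals; red filled circles mark an adjusted p under 0.05 and open squares the others. Only Pth (-0.42 and -0.44) and the brighter probe of Pdzk1ip1 (-0.55, against Glatopa) are marked.

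None of the 9 probes was called between lots of an article by limma's F test (0 of 9 for Copaxone, where 0.0254% of all probes were called and 3.40% had an unadjusted p under 0.05, and 0 of 9 for Glatopa, where 0% were called and 3.94% had an unadjusted p under 0.05). Wells of 1 lot could be far apart. For Klhdc2, the Copaxone lot 9 wells read 9.87 and 8.11, the highest value of all Copaxone samples and one of the lowest. The same wells read 9.90 and 8.21 for St7, 11.70 and 9.53 for the brighter probe of Rasl2-9, and 11.14 and 10.06 for Tmem123. For the brighter probe of Pdzk1ip1 they were the other way round, at 6.36 and 7.12. Pth read 6.24 and 6.30 in them. Means of Copaxone lots spanned 0.80 for Klhdc2, 0.88 for the brighter probe of Rasl2-9, 0.56 for that of Pdzk1ip1 and 0.36 for Pth, and means of Glatopa lots spanned 0.04, 0.23, 0.10 and 0.07. These spans are not alike in kind, since the 9 Copaxone lots had 1 or 2 wells each and the 4 Glatopa lots had 4, and the highest Copaxone mean of Klhdc2 and of the brighter probes of Rasl2-9 and Pdzk1ip1 was that of lot 8, a single well.

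**Figure D4:**
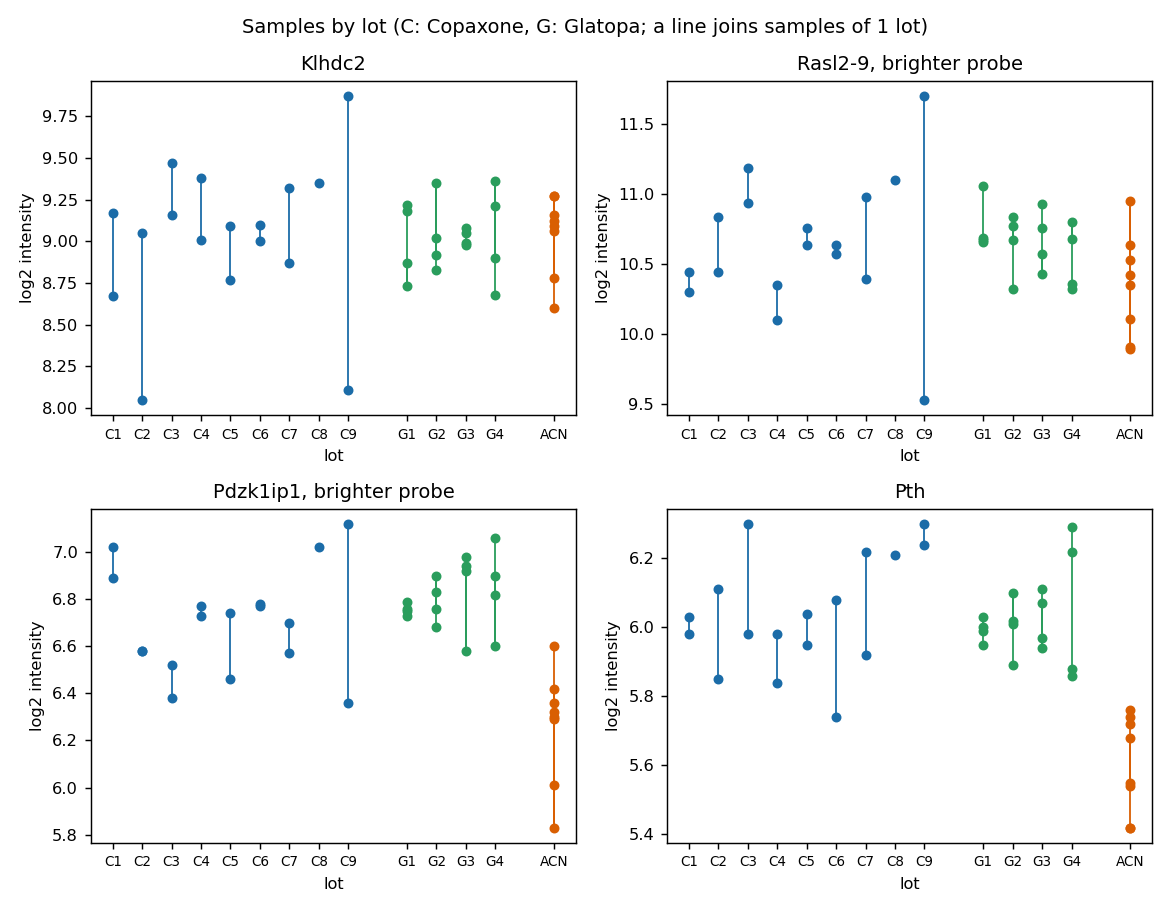
Log2 intensity (y axis) of each sample by lot (x axis) for Klhdc2, the brighter probes of Rasl2-9 and Pdzk1ip1, and Pth, with a line joining the samples of a lot. The wells of Copaxone lot 9 lie 1.77 apart for Klhdc2 and 2.16 apart for Rasl2-9, and the ACN samples of Pth lie below all Glatopa lots.

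The 4 arrays named at the start had a score above 0.3 on the first component of the deviations from the group means over all probes (12.0% of that variance). The deviations of the brighter probe of Rasl2-9 followed these scores over the 48 samples (Pearson's r = 0.79), as did those of St7 (0.56), Klhdc2 (0.55) and Tmem123 (0.55) more loosely, whereas the brighter probe of Pdzk1ip1 ran against them (-0.41). Hal (0.08) and Pth (0.20) hardly followed them. These and the correlations that follow are descriptions over samples that share a day and a normalization, with no test.

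Among the 7 genes, the deviations of Klhdc2, St7, Tmem123 and the brighter probe of Rasl2-9 went together, with r between 0.44 and 0.59. The brighter probe of Pdzk1ip1 went against St7 (-0.50) and Rasl2-9 (-0.49). The pairs of probes of 1 gene did not follow each other, with r = 0.07 for Pdzk1ip1 and -0.09 for Rasl2-9. The brighter probe of Rasl2-9 had r = 0.39 with the brighter probe of Ran and -0.57 with its dimmer probe, and these last 2 had r = -0.32 with each other.

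**Figure D5:**
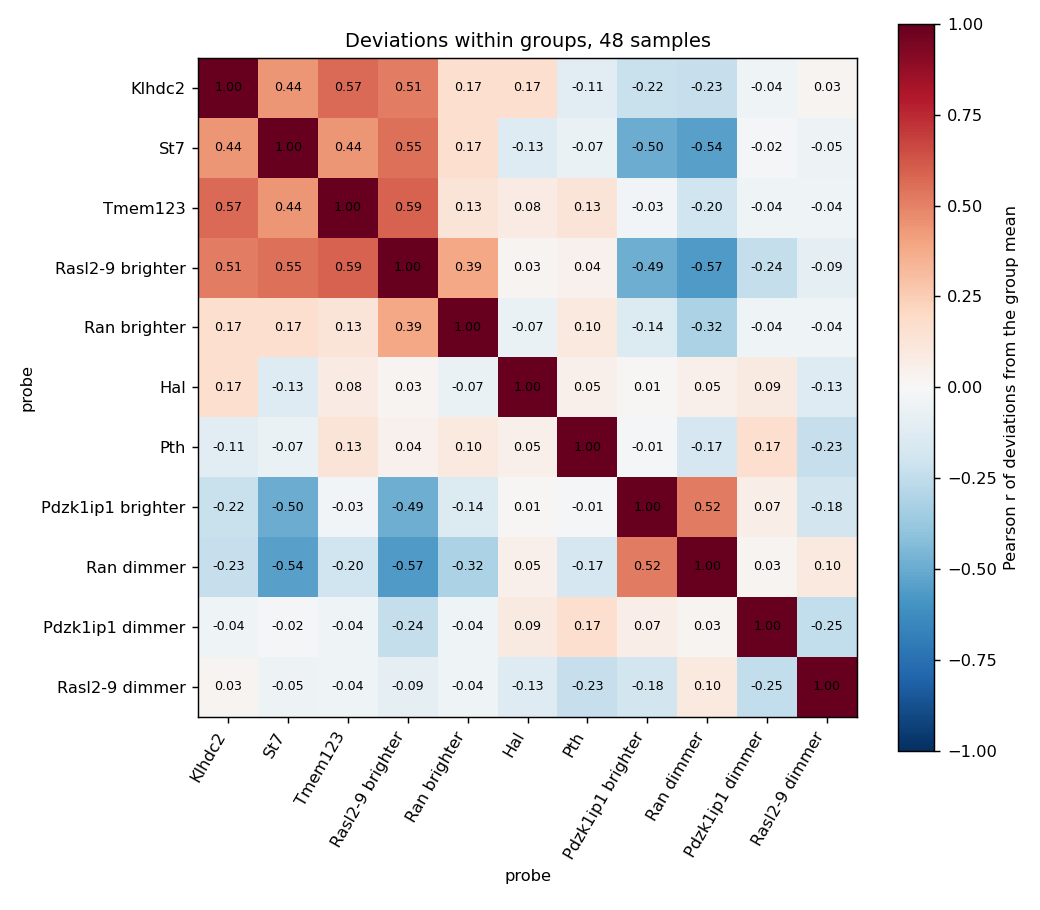
Pearson's r between probes (both axes) of the deviations from the group mean over 48 samples, for the 9 probes and 2 probes of Ran. Klhdc2, St7, Tmem123 and the brighter probe of Rasl2-9 form a block of 0.44 to 0.59, and the probes of Pdzk1ip1 (0.07) and of Rasl2-9 (-0.09) do not go together.

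Genes whose deviations were most like those of a member were sought among 15477 named probes at or above the median. They were Prkcd (r = 0.79), Tomm40 (0.77) and Dapp1 (0.73) for Klhdc2, and Slc25a12 (0.79), Rfng (0.74) and Ddx31 (0.74) for St7. For the brighter probe of Rasl2-9 they were Gm5735 (0.84), Osbpl2 (0.82) and Sec13 (0.81). For the brighter probe of Pdzk1ip1 they were Bccip (0.74), Nip7 (0.73) and Clic1 (0.66), and for Tmem123 they were Kpna1 (0.68), Cacfd1 (0.67) and Ube2d2a (0.66). Hal had Zfp763 (0.66), Olfr726 (0.65) and Cyp2r1 (0.65), and Pth had the loosest matches, Mtx3 (0.60), Zfp318 (0.59) and Rpl28 (0.58). In ACN replicate 7, Hal read 6.295 beside an ACN mean of 5.507. How far the matches of Hal rest on that sample was not tested.

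The partners of the 7 proteins were read against Media from 7 lists holding 71 measured genes, of which 21 were called with Copaxone, 22 with Glatopa and 14 with ACN, where 16.2% of all probes were called with Copaxone (8.71% higher and 7.46% lower), 18.9% with Glatopa (10.3% and 8.56%) and 7.08% with ACN (3.73% and 3.36%). Each list gene is read by its probe with the highest mean, so shares over all probes, dim ones included, are not a like background. In fits of the 19715 probes at or above the median alone, 3752 were called higher and 3109 lower with Copaxone. The counts were 4420 and 3490 with Glatopa, and 1724 and 1513 with ACN. The lists were chosen with earlier results of these data known, so the counts of genes called in them are a description. The Ran cycle, Ran included, had the most genes called, with 9 of 13 genes higher with Copaxone, 9 with Glatopa and 5 with ACN, and 0 lower. Its median log2 difference with Copaxone was 0.57, beside -0.00 over all probes. Cse1l, which returns importin alpha from the nucleus to the cytoplasm, was 1.85-fold higher (SE of the log2 difference 0.16, adjusted p = 1.52e-04, limma). Ran was 1.77-fold higher (SE 0.11, adjusted p = 2.86e-06, limma) and Rangap1, which activates the GTPase of Ran, 1.65-fold (SE 0.15, adjusted p = 6.83e-04). Ran itself read 10.91 ± 0.19 (n = 7) in Media and 11.74 ± 0.27 (n = 17) with Copaxone, and as a close copy of Rasl2-9 it may share signal with the probes of that gene.

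Of 14 genes of the Klhdc2 ligase and its fellow receptors, 3 were higher and 1 lower with Copaxone, with a median of 0.03. Eloc, a shared adaptor subunit (elongin C), was 1.27-fold higher (adjusted p = 0.00776, limma) and Fem1b, another substrate receptor, 1.22-fold (adjusted p = 0.0130), whereas Zyg11b, a receptor for N-terminal glycine, was 1.54-fold lower (adjusted p = 3.73e-05). The scaffold Cul2 read 6.40 ± 0.19 (n = 7) in Media and differed by 0.09 with Copaxone (adjusted p = 0.693, limma).

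Of 11 genes of histidine and one-carbon metabolism, 3 were higher and 0 lower with Copaxone, with a median of 0.08. The enzymes after Hal in histidine breakdown, Uroc1 (4.81 ± 0.14 in Media and 4.77 ± 0.14 with Copaxone), Amdhd1 and Ftcd, were near the array medians in both groups and not called. Those called were folate enzymes, with Shmt2 1.83-fold higher (adjusted p = 2.79e-07, limma), Mthfd1 1.62-fold (adjusted p = 0.0363) and Mthfd2 1.26-fold (adjusted p = 0.00517).

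Each other list had 1 or 2 genes called with Copaxone. Of 9 genes with Tmem123, Birc3, an inhibitor of apoptosis whose gene lies near Tmem123, was 1.55-fold higher (adjusted p = 4.19e-05, limma), and Cd43 (Spn), a sialomucin of leukocytes, was 1.31-fold lower (adjusted p = 2.37e-04). Of 8 genes with Pdzk1ip1, Scarb1, a lipoprotein receptor that binds Pdzk1, was 1.44-fold higher (adjusted p = 8.43e-04), while Pdzk1 read 4.91 ± 0.20 in Media and 4.84 ± 0.17 with Copaxone (adjusted p = 0.630). Of 8 genes with Pth, Vdr, the vitamin D receptor, was 1.27-fold higher (adjusted p = 0.00958), while the receptor Pth1r read 4.99 ± 0.18 and 4.89 ± 0.11 (adjusted p = 0.332). Of 8 genes with St7, Capza2, a capping protein of actin whose gene adjoins St7, was 0.37 higher on the log2 scale (adjusted p = 0.00561), while the paralogue St7l read 6.15 ± 0.18 and 5.92 ± 0.19 (adjusted p = 0.0652).

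The nearest measured genes on either side of the 7 differed from Media by at most 0.37 with Copaxone. Of these 14 neighbours, 4 were called with Copaxone by limma, where 16.2% of all probes were. Each neighbour was read by its brightest probe too, so this share is not a like background either. Klhdc1, next to Klhdc2 and a ligase receptor too, went from 4.84 to 5.09 (log2 difference 0.25, SE 0.05, adjusted p = 9.54e-04), Far1, next to Pth, by 0.33 (SE 0.07, adjusted p = 0.00106), Capza2 by 0.37, and Tal1, next to Pdzk1ip1, by -0.29 (SE 0.10, adjusted p = 0.0402). On the other side of Klhdc2, Nemf differed by -0.17 (adjusted p = 0.117), and on both sides of Hal, Lta4h (-0.05) and Amdhd1 (0.02) were not called.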

How the data were processed

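The arrays were read with Cy3 as the single dye. The authors corrected the spots for background by normexp in limma and then quantile-normalized their log2 values. These deposited log2 values, 1 per spot, were used with no further scaling, and arrays that the authors had excluded for quality were not analysed here. Where 10 or more spots shared a symbol and an identifier (387 cases) their mean was taken, turning 43020 spots into 39430 probes, of which 29436 carry 1 symbol and 9994 none. The array annotation names no genome build, so no coordinates were taken for probes. The number of arrays sets the precision. No pair of arrays was identical (correlations 0.928 to 0.990).

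Each pair of groups was fitted alone with limma 3.58.1 (lmFit and eBayes, two-sided) in R 4.3.3, with Benjamini-Hochberg adjustment over all probes and a threshold of 0.05. Lots were compared with limma's F test. The fits were tested on simulated data. Alternatives were the methods' t-test, all groups in 1 fit, an intensity trend, cyclic loess, the brighter probes, array weights, blocks for replicate number and lot, lot means, Bonferroni and leaving out each replicate or lot. Sample groups and lots came from the titles. The series' design text gives other sample numbers for Glatopa and Media than the labels, and the labels were used. A gene of a list is represented by its probe with the highest mean. Of each list up to 3 genes with the largest change past the test with Copaxone were named, and Ran in every case; others named are at the head of a pathway or beside a member and were chosen after their values were seen. Tables were handled with pandas 2.3.3 in Python. The 7 genes and the lists were chosen with earlier results of these data known. List genes without a probe of that symbol were left out.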

Additional observations from a re-analysis of the deposited data

Results flagged for a closer look

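Hal in ACN replicate 7 read 6.295, far above the other ACN samples, the nearest of which read 5.67. The gap was 0.569 of the range of the 8 ACN samples. Among the 18 groups of samples to which Dixon's test was applied, 1 was flagged, and chance flags about 1 in 20. These were the Media and ACN samples of each probe, and the larger Copaxone and Glatopa groups were not tested for outliers. Without that sample the difference of Hal between ACN and Copaxone was 0.15 on the log2 scale (0.26 with it).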

How the results depend on the processing

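Between ACN and Copaxone, 1 member probe (Pth) was called, and 2 with all 4 groups in one fit, the brighter probes, array weights or lot as a random block. It was 0 without the 4 arrays that stood apart, an alternative chosen after seeing the data, and 0 with the replicate block (Pth -0.62, adjusted p = 0.0506, limma). The block also moved St7 to 0.45, Klhdc2 to 0.20, the dimmer probe of Rasl2-9 to -0.02 and the brighter probe of Pdzk1ip1 to -0.65, from 0.03, 0.02, -0.61 and -0.44. Copaxone has only replicates 1 and 2, so the differences with the block rest on ACN replicates 1 and 2 and not on all ACN samples. Leaving out 1 replicate or lot gave 1 to 2, with 2 without ACN replicate 8, Copaxone lot 3 or Copaxone lot 9. Over the alternatives the adjusted p was 2.01e-04 to 0.0565 for Pth and 0.00836 to 1 for the brighter probe of Pdzk1ip1. Between ACN and Glatopa, 2 probes were called, 2 in each left-out fit and 0 with lot means. Glatopa and Copaxone differed in 0 member probes throughout.

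The pathway genes called against Media were 21 with Copaxone (6 with the replicate block, 3 with Bonferroni, 20 to 24 with a replicate or lot left out), 22 with Glatopa (9 with Bonferroni, 22 to 24 left out) and 14 with ACN (5 with lot as a random block, 3 with Bonferroni, 13 to 15 left out). With the replicate block, the Copaxone count rests on Media replicates 1 and 2 alone. Deviations of samples with the same replicate number in different groups gave 21 correlations, from -0.467 to 0.178, of which 4 were over 0.1. Whether replicate numbers pair the samples was not tested.

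Over all probes, calls ran from 3 to 92 for ACN against Copaxone (44 in the report, 4 to 62 left out), 0 to 1202 for ACN against Glatopa (268, 82 to 321 left out), 1307 to 7141 for Copaxone against Media (6374), 1838 to 7910 for Glatopa (7453) and 341 to 3742 for ACN (2793). Cyclic loess turned the split of higher and lower calls from 3433 and 2941 to 2598 and 3546 with Copaxone, from 4077 and 3376 to 3286 and 3915 with Glatopa, and from 1470 and 1323 to 1124 and 1608 with ACN. The cause of these changes was not tested. No result turned its direction past a threshold.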
